A study of Mus with 6 samples.

Results

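Semaphorins, plexins, Slits, Robos, netrins, Unc5 receptors, ephrins and Eph receptors were followed in endothelial cells of the injured mouse heart with and without the chemokine gene Ccl28. The members were taken by gene symbol alone: 65 genes of the expression table matched the family names, and 3 of them (Sema3g, Efnb2 and Ephb4) were set aside, which left 62 of 20893 genes. By family name 25 members were receptors and 35 were ligands. The other 2 were Plxna4os1, a non-coding RNA gene inside Plxna4, and Unc5cl, which shares a name with the netrin receptors but is not one of them. The rule used no measured value.

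The libraries came from cardiac microvascular endothelial cells, enriched with magnetic beads as CD45- CD31+ cells after the left coronary artery had been ligated. There were 3 wild-type (WT) libraries and 3 Ccl28 knockout (KO) libraries, numbered 2, 3 and 4 in each group, and all 6 came from ligated hearts, with no sham group used here. KO 3 and KO 4 are Ccl28 knockouts by title but Ccl29-KO and Ccl30-KO in their genotype field, and the title was used. The kind of knockout allele, strain, sex, age and time after ligation are not given in the sources used here. Since no label ties a replicate to its own animal, each p-value weighs the groups against the spread among these samples alone, and that spread may be technical.

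These families were first known for steering axons, and the same ligands and receptors steer vessel sprouts. Semaphorins signal through plexins, the class 3 semaphorins mostly with neuropilins as co-receptors, and commonly cause retraction of the cell edge. Slits bind Robos, netrins bind Unc5 receptors, DCC and neogenin, and ephrins anchored in the membrane bind Eph receptors on the neighbouring cell, with signals in both directions. In vessels, Plxnd1 is the plexin of endothelium, Robo4 is the endothelial member of its family, and Unc5b marks arterial and tip cells.

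The unit is FPKM, which divides reads by transcript length and by library depth, so levels of different genes are compared per length. Libraries held 36004456 to 40500067 reads assigned to genes, recovered from the deposited values, and 93 (Plxna4os1) to 64871 (Plxnd1) reads lay behind each value of a tested member. Tests were limma fits on log2(FPKM + 1) over the 10806 genes that reached 1 FPKM in 3 or more libraries, with Benjamini-Hochberg adjustment over all of them and a threshold of 0.05. A negative log2 fold change means lower in KO, and on this scale the change of low genes is understated. Of the tested genes 2790 (25.8%) were lower in KO and 1982 (18.3%) were higher. With median-ratio scaling of the libraries the split was 2390 lower and 2576 higher. The difference between the groups followed transcript length: the slope of a library on log2 length was 0.101 to 0.135 in WT and -0.155 to -0.0911 in KO, most extreme in replicate 4 of each group. Each member is therefore also given after a smooth length trend was taken out of every library, and in that fit 1018 genes (9.42%) were lower and 1001 (9.26%) were higher. Genotype and the length trend cannot be told apart in these 6 libraries.

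Guidance genes were mostly lower in KO, in FPKM as deposited all tested receptors and part of the ligands. Of the 10 tested receptors 8 were lower with median-ratio scaling or with limma-voom on the recovered reads. With any 1 library left out 8 or 9 were lower, and with the length trend removed 4. Of the 62 members 23 passed the expression filter: 10 receptors, 12 ligands and Plxna4os1. Of these 23, 17 were lower, 1 (Efna1) was higher and 5 were not called, and after removal of the length trend 8 were lower and 1 (Sema6b) was higher. In 17 of the 23 every KO library lay below every WT library, against 31.9% of all tested genes. The median log2 fold change was -0.47 over the 23 and -0.03 over all tested genes, and with the trend removed -0.19 and -0.00. The members had long transcripts, with a median length of 5738 nt against 3429 nt over all tested genes. KO 4 was the lowest of the 6 libraries in 15 of the 23 (65.2%, against 28.5% of all tested genes) and WT 4 was the highest in 14 (60.9%, against 23.0%).

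**Figure D1:**
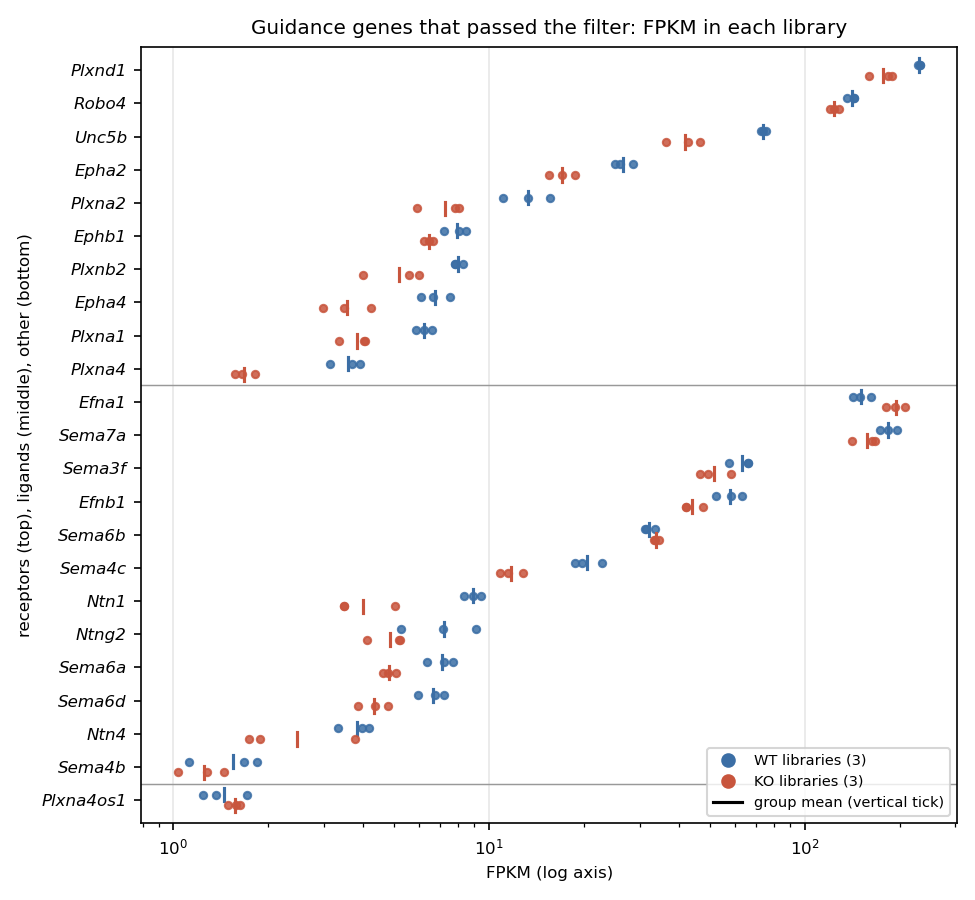
FPKM (log axis) of the 23 guidance genes that passed the filter, one row per gene, with receptors at the top, ligands in the middle and Plxna4os1 at the bottom; points are the 3 WT and 3 KO libraries and vertical ticks are group means. Plxnd1, Robo4, Sema7a and Efna1 lie above 100 FPKM in all 6 libraries, and Efna1 is the one tested gene of the families with all KO points above all WT points.

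Summed over the members in FPKM as deposited, receptor transcripts were further below WT in KO than ligand transcripts were. The 25 receptors together held 515.5, 517.4 and 531.5 FPKM in WT 2, 3 and 4, and 406.9, 402.7 and 364.5 FPKM in KO 2, 3 and 4. The KO over WT ratio of the group means was 0.75, from 521 ± 8.70 to 391 ± 23.4 FPKM (SD, n = 3 each). The 35 ligands held 543.3, 543.8 and 564.1 FPKM in WT and 526.9, 522.5 and 506.7 in KO, a ratio of 0.942. Neither sum overlapped between the groups in FPKM as deposited, but with median-ratio scaling the ligand sums did overlap. The ligand ratio rests on one gene: without Efna1 it was 0.813, and with median-ratio scaling it was 0.982. Ligand FPKM per receptor FPKM was 1.05, 1.05 and 1.06 in WT and 1.29 to 1.39 in KO. These sums and ratios leave out the genes set aside by name, so they do not give the balance of the whole families. Left out were the receptor Ephb4 (means 173 FPKM in WT and 143 in KO) and 2 ligands. The ligands were Sema3g (86.6 in WT and 64.3 in KO) and Efnb2 (30.2 and 18.1). No sum or ratio was computed with the length trend removed. In that fit the receptors Plxnd1 and Robo4, which make up most of the receptor sum, each had a log2 fold change of -0.06. Efna1 had 0.13 there (limma adjusted p = 0.261).

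Few genes made up these sums. Plxnd1 gave 43.5% to 47.0% of a library's receptor FPKM, Robo4 26.5% to 34.0% and Unc5b 10.0% to 14.3%, together 84.6% to 87.9%. Among ligands Efna1 gave 25.2% to 41.0%, Sema7a 28.0% to 34.7% and Sema3f 9.20% to 12.2%, together 71.5% to 78.2%. In bulk samples such as these, fewer cells of a type and less RNA per cell cannot be told apart.

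**Figure D2:**
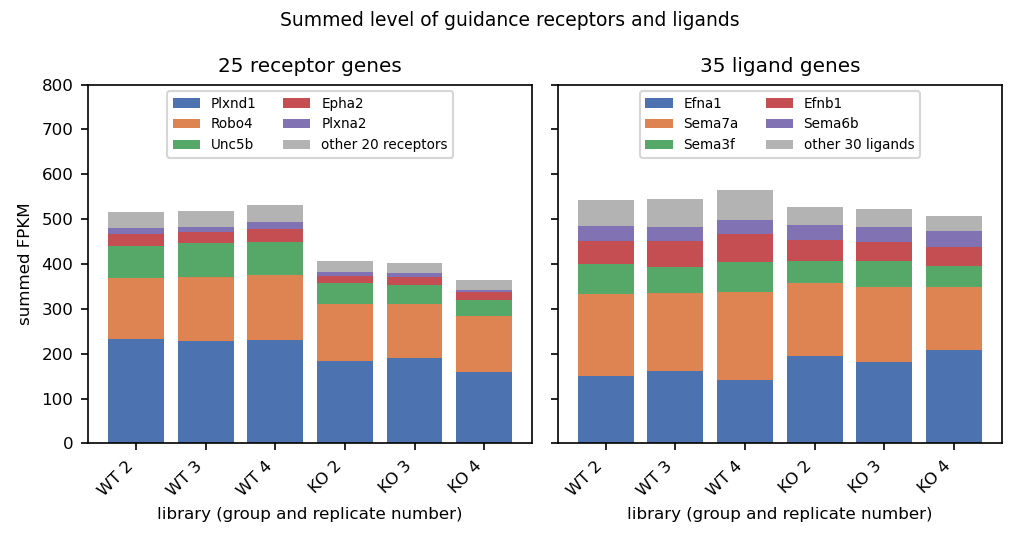
Summed FPKM of the 25 receptors (left) and the 35 ligands (right) in each library, stacked by gene with the 5 highest genes named and the rest in one block; bars start at 0. The receptor stacks go from 515.5 to 531.5 FPKM in WT to 364.5 to 406.9 in KO, while the ligand stacks run from 506.7 to 564.1 with a taller Efna1 block in KO.

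The 5 tested plexins, the signalling receptors for semaphorins, were all lower in KO, and 1 of them (Plxna4) was also lower with the length trend removed. Plxnd1 (gene ID 67784, chr6:115954811-115995339 in GRCm38.p6) is the plexin that reads class 3 semaphorins in endothelium. It had 232, 229 and 231 FPKM in WT and 183, 189 and 159.7 in KO. The WT libraries lay within a few FPKM of each other and all 3 KO libraries were below them, with KO 4 lowest. The means were 231 ± 1.74 and 177 ± 15.6 (SD, n = 3 each), with a log2 fold change of -0.38 (SE 0.08, limma adjusted p = 0.00413). With the trend removed it was -0.06 (adjusted p = 0.526).

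The 3 tested plexin A genes lay much lower per length and had larger log2 fold changes. Plxna3, under the filter, had overlapping groups. Plxna2 (gene ID 18845, chr1:194619791-194816869) had 13.3, 11.1 and 15.6 FPKM in WT and 7.82, 8.02 and 5.92 in KO, with no overlap. Its log2 fold change was -0.79 (SE 0.14, limma adjusted p = 0.00172) and its mean was 1.84 times higher in WT. With the trend removed it was -0.34 (adjusted p = 0.0661). Its transcript, at 14767 nt, is the longest of the tested receptors. Plxna1, a partner of neuropilins in semaphorin binding, had 6.22, 5.86 and 6.59 FPKM in WT and 4.03, 4.06 and 3.34 in KO. Its means were 6.22 ± 0.366 and 3.81 ± 0.405 (limma adjusted p = 0.0014, and 0.112 with the trend removed).

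Plxna4 (gene ID 243743, chr6:32144543-32588192) was the plexin lower in both fits. It had 3.68, 3.14 and 3.90 FPKM in WT against 1.82, 1.65 and 1.56 in KO, from 710 to 1936 reads a library. Every WT library was above every KO library, and the WT mean was 2.13 times the KO mean. Plxna4 had a log2 fold change of -0.77 (SE 0.10, limma adjusted p = 0.000665) and -0.33 with the trend removed (adjusted p = 0.032). Plxna4os1 lies within this gene at chr6:32511141-32515576 and had 1.37, 1.25 and 1.71 FPKM in WT and 1.58, 1.49 and 1.63 in KO, from 93 to 129 reads. Its groups overlapped and it was not called (limma adjusted p = 0.592). Whether reads were counted by strand is not stated, so reads of these 2 genes cannot be told apart where they overlap. Plxna4os1 is described here for that overlap.

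Plxnb2, a receptor for class 4 semaphorins, had 7.82, 7.80 and 8.27 FPKM in WT and 5.99, 5.58 and 4.01 in KO. KO 4 stood lowest again and the groups did not overlap. Its log2 fold change was -0.55 (SE 0.12, limma adjusted p = 0.00627) and -0.19 with the trend removed (adjusted p = 0.252).

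Robo4 (gene ID 74144, chr9:37401902-37414023), the endothelial Robo, had 136, 143 and 143 FPKM in WT and 128, 120.5 and 124 in KO. The groups did not overlap, but the gap was narrow. Robo4 had a log2 fold change of -0.18 (SE 0.06, limma adjusted p = 0.0442), the smallest among the receptors, and -0.06 with the trend removed (adjusted p = 0.484). Its call was lost when WT 3 (adjusted p = 0.0975), WT 4 (0.147), KO 2 (0.0716), KO 3 (0.128) or KO 4 (0.0942) was left out, with median-ratio scaling (0.162) and with limma-voom on the recovered reads (0.194).

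Unc5b (gene ID 107449, chr10:60762594-60831581), a netrin receptor, was among the most changed receptors and kept its call in every fit run. It had 72.5, 74.0 and 75.4 FPKM in WT against 46.5, 42.8 and 36.5 in KO. The WT libraries were close together, and the KO libraries spread downward to KO 4. The means were 74.0 ± 1.42 and 41.9 ± 5.06 (SD, n = 3 each), with a log2 fold change of -0.81 (SE 0.09, limma adjusted p = 0.000456). With the trend removed it was -0.55 (adjusted p = 0.00415).

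All 3 tested Eph receptors were lower, 2 of them also with the length trend removed. Epha2 (gene ID 13836, chr4:141301221-141329384), a receptor for ephrin-A ligands in angiogenic endothelium, had 26.0, 25.1 and 28.6 FPKM in WT and 15.5, 18.7 and 17.0 in KO. The groups were well apart, and here KO 2 was the lowest library. The log2 fold change was -0.61 (SE 0.09, limma adjusted p = 0.000831) and -0.48 with the trend removed (adjusted p = 0.00785).

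Epha4 (gene ID 13838, chr1:77367182-77515107) binds ephrins of both classes. It had 6.09, 6.66 and 7.52 FPKM in WT and 4.23, 2.97 and 3.48 in KO, again without overlap, and the WT mean was 1.90 times the KO mean. Its log2 fold change was -0.77 (SE 0.12, limma adjusted p = 0.00109) and -0.48 with the trend removed (adjusted p = 0.0244). Ephb1, a receptor for ephrin-B ligands, was the least changed of the 3, at 8.49, 8.05 and 7.20 FPKM in WT and 6.64, 6.24 and 6.48 in KO. Its limma adjusted p was 0.0374, and 0.555 with the trend removed. That call was lost without WT 2 (adjusted p = 0.111), WT 3 (0.0813), KO 2 (0.0686), KO 3 (0.0981) or KO 4 (0.0742). It was also lost with no expression filter (0.0643), median-ratio scaling (0.0797), limma-voom (0.0653) or quantile normalization (0.215).

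In FPKM as deposited ligands moved less uniformly than receptors: 7 of 12 were lower, 1 was higher and 4 were not called. The shares over all tested genes were 25.8% lower and 18.3% higher. With the length trend removed 4 of 10 receptors and 4 of 12 ligands were lower, and 1 ligand (Sema6b) was higher. Efna1 (gene ID 13636, chr3:89271730-89280951), a ligand tethered to the membrane by a lipid anchor and a partner of Epha2 and Epha4, had 149.7, 162 and 142 FPKM in WT and 194, 181 and 208 in KO. Every KO library was above every WT library, with KO 4 highest. The means were 151 ± 10.3 and 194 ± 13.1 (SD, n = 3 each), 1.28 times higher in KO. The log2 fold change was 0.36 (SE 0.08, limma adjusted p = 0.00586), and 0.13 with the trend removed (adjusted p = 0.261). The call was also lost with quantile normalization (adjusted p = 0.0713). At 1642 nt its transcript is the shortest of the 23.

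Efnb1 (gene ID 13641, chrX:99136061-99149022), a transmembrane ephrin, moved the other way. It had 52.2, 58.5 and 63.3 FPKM in WT and 47.5, 42.0 and 41.9 in KO. The nearest libraries, WT 2 and KO 2, were 52.2 and 47.5 FPKM. The log2 fold change was -0.39 (SE 0.09, limma adjusted p = 0.00591) and -0.35 with the trend removed (adjusted p = 0.0258). For Efnb1 the removal changed little, and its transcript of 3358 nt is near the median of all tested genes.

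Of the 7 tested semaphorins 4 were lower, and 1 of those (Sema4c) was lower with the length trend removed. Sema7a (gene ID 20361, chr9:57939596-57962865), a lipid-anchored semaphorin that signals through integrins and Plxnc1, was the highest of them per length. It had 183, 173 and 195 FPKM in WT and 163, 167 and 142 in KO. The groups did not overlap, yet the difference just missed the threshold (log2 fold change -0.23, SE 0.08, limma adjusted p = 0.0508, and 0.259 with the trend removed). It was called without WT 3 (adjusted p = 0.0471) or KO 3 (0.0447), with a filter at 5 FPKM (0.0439) and with quantile normalization (0.00799). The other settings run did not call it. Among them were median-ratio scaling (0.127), limma-voom (0.127), and the fits without WT 4 (0.185) or KO 4 (0.171).

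Sema3f, a secreted ligand of neuropilin 2, had 66.3, 57.6 and 66.2 FPKM in WT and 49.4, 58.4 and 46.6 in KO. KO 3 lay within the WT range, so the groups overlapped. The log2 fold change was -0.30 (SE 0.10, limma adjusted p = 0.0298) and -0.03 with the trend removed (adjusted p = 0.80). Its call was lost without WT 2 (adjusted p = 0.0768), WT 4 (0.104), KO 2 (0.0864) or KO 4 (0.107), with no expression filter (0.105) and with median-ratio scaling (0.0633).

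Sema4c (gene ID 20353, chr1:36548639-36560699), a transmembrane semaphorin that binds Plxnb2, had 19.7, 18.7 and 22.9 FPKM in WT against 11.5, 12.8 and 10.8 in KO. All KO libraries were far below all WT libraries. The log2 fold change was -0.75 (SE 0.10, limma adjusted p = 0.000592) and -0.40 with the trend removed (adjusted p = 0.0115).

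The class 6 semaphorins are transmembrane ligands of class A plexins, and the 3 tested differed among themselves. Sema6b had 33.6, 31.3 and 31.2 FPKM in WT and 33.4, 33.6 and 34.7 in KO, with overlap (limma adjusted p = 0.369). Without the length trend it was called higher (log2 fold change 0.25, adjusted p = 0.026). Sema6d had 6.74, 5.96 and 7.21 FPKM in WT and 4.34, 4.78 and 3.86 in KO (limma adjusted p = 0.00339, and 0.73 with the trend removed). Sema6a had 6.38, 7.71 and 7.21 FPKM in WT and 5.10, 4.78 and 4.61 in KO (limma adjusted p = 0.00336), but its log2 fold change went from -0.47 to 0.03 with the trend removed (adjusted p = 0.85). Sema6a and Sema6d have the longest transcripts of the 23, at 33449 and 20390 nt. Sema4b, the remaining tested semaphorin, was low at 1.12 to 1.84 FPKM in WT and 1.04 to 1.44 in KO and was not called.

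Netrins were lower in 2 of 3 tested members. Ntn1 (gene ID 18208, chr11:68209364-68386826), a secreted ligand of Unc5b, had the largest fold among the 23. It had 9.44, 8.31 and 8.88 FPKM in WT and 3.49, 5.02 and 3.48 in KO. The WT libraries were close together, and the highest KO library was well below them. The WT mean was 2.22 times the KO mean, with a log2 fold change of -1.0 (SE 0.12, limma adjusted p = 0.000549) and of -0.74 with the trend removed (adjusted p = 0.00545). Ntn1, Unc5b and Epha2 were the 3 members called under all 15 other settings run.

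Ntng2, a netrin-G tethered to the membrane, varied within WT, with 5.27, 9.12 and 7.17 FPKM against 5.23, 5.20 and 4.10 in KO. Its limma adjusted p was 0.0403, and 0.0417 with the trend removed. The call was lost without WT 3 (adjusted p = 0.126), WT 4 (0.0972), KO 2 (0.0556) or KO 4 (0.136). The same held with no expression filter (0.164), median-ratio scaling (0.0781), limma-voom (0.086) or quantile normalization (0.149). Ntng2 also overlaps the non-coding gene 6530402F18Rik, at 4.67 FPKM in WT and 3.91 in KO, and reads of the overlap cannot be told apart. Ntn4, a netrin of basement membranes, had 3.33, 3.96 and 4.15 FPKM in WT and 3.78, 1.89 and 1.74 in KO. One KO library, KO 2, sat among the WT values, and the adjusted p was 0.051 in limma with it and 0.00264 without it. With limma-voom on all 6 libraries it was 0.0485. Ntn4 was not called with the trend removed (adjusted p = 0.0618), median-ratio scaling (0.0714), quantile normalization (0.142) or no expression filter (0.203). Nor was it called when any other single library was left out (0.0587 to 0.176).

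**Figure D3:**
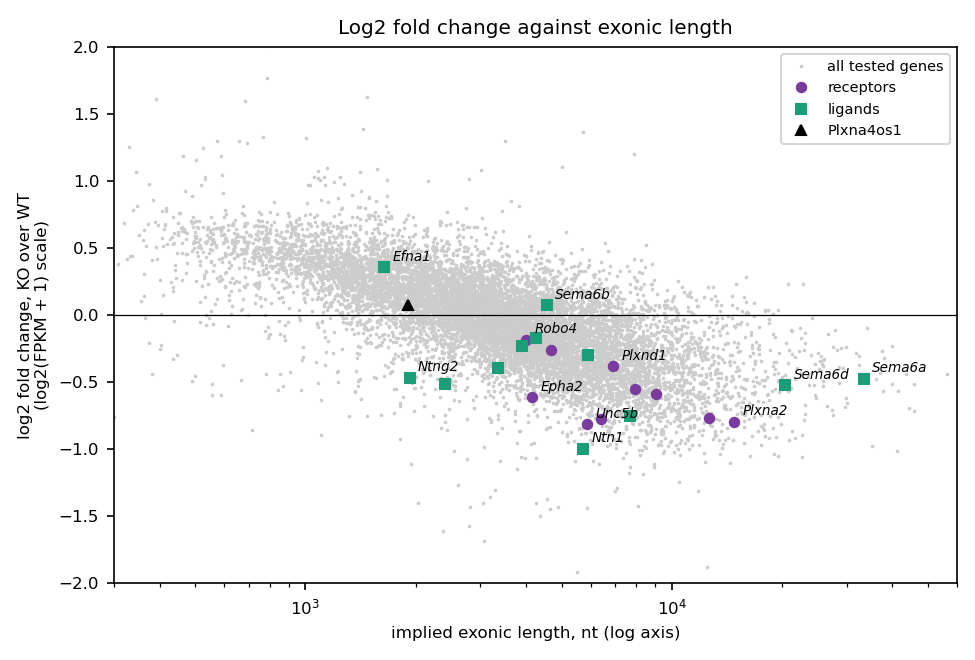
Log2 fold change of KO over WT (log2(FPKM + 1) scale) against exonic length in nt (log axis) for all 10806 tested genes (grey, 16 of them outside the plotted range) with the guidance genes marked by role. Receptors have lengths of 4011 to 14767 nt and ligands of 1642 to 33449 nt, and Efna1, the shortest, is the highest of the 23.

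Receptors and ligands differed in length as well as in change. The 10 tested receptors had a median length of 6653 nt and a median log2 fold change of -0.60, and the 12 ligands had 4408 nt and -0.43. With the length trend removed 4 receptors (Epha2, Epha4, Plxna4 and Unc5b) were lower with a median of -0.26 over all 10. In the same fit 4 ligands (Efnb1, Ntn1, Ntng2 and Sema4c) were lower and Sema6b was higher, with a median of -0.08 over all 12. These 8 lower genes were among the 17 lower in the FPKM as deposited. No test of receptors against ligands was made, since genes are not replicates.

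**Figure D4:**
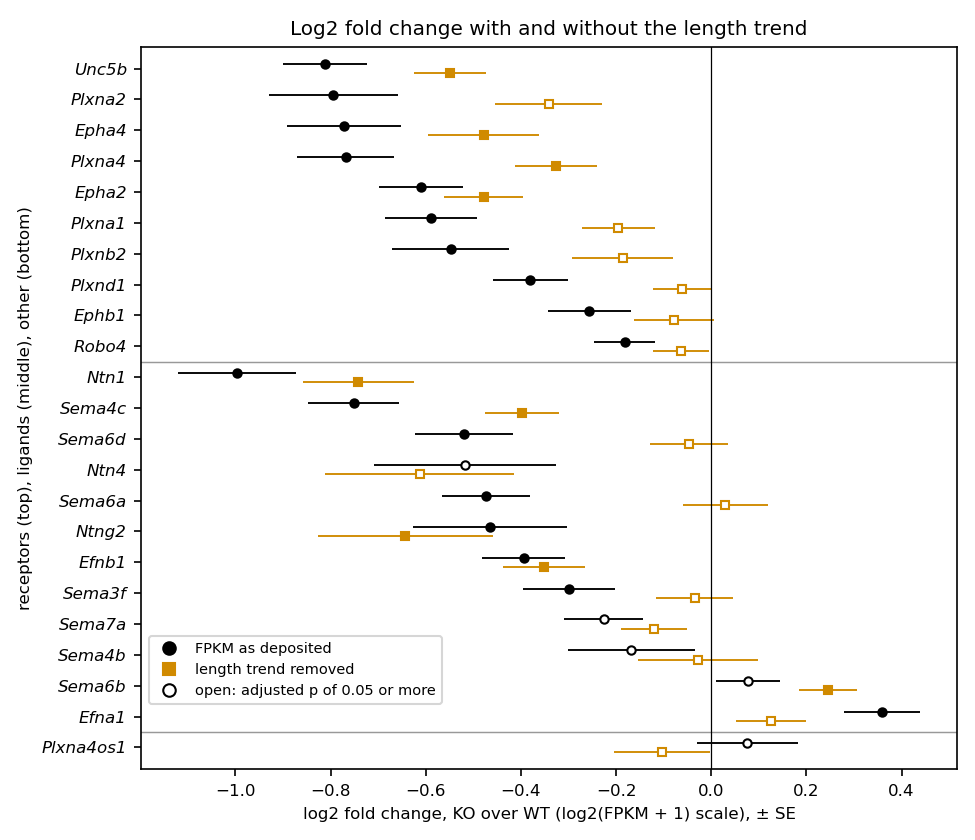
Log2 fold change of KO over WT with its SE for each of the 23 genes, from FPKM as deposited (circles) and with the length trend removed (squares); open symbols have an adjusted p of 0.05 or more. With the trend removed the symbols move toward 0 for most genes. Sema6a (from -0.47 to 0.03) and Plxna4os1 (0.08 to -0.10) cross it. Ntng2 (-0.47 to -0.64), Ntn4 (-0.52 to -0.61) and Sema6b (0.08 to 0.25) move away from it.

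Ligand to receptor ratios within a library are given for chosen pairs as descriptions with no test, and binding within a pair was not examined. They were higher in every KO library than in every WT library for the pairs of Efna1 with Epha2, Efna1 with Epha4 and Sema3f with Plxna1, and overlapped between the groups in the other pairs computed. In these 3 pairs the ligand transcript is the shorter one. Efna1 has 1642 nt against 4160 for Epha2 and 6398 for Epha4, and Sema3f 5898 against 9028 for Plxna1. The ratios use FPKM as deposited, and the part of the length trend in them was not tested. Efna1 FPKM per Epha2 FPKM was 5.77, 6.46 and 4.96 in WT and 12.5, 9.68 and 12.2 in KO. For Efna1 per Epha4 the ratios were 24.6, 24.4 and 18.9 in WT and 45.8, 61.1 and 59.7 in KO. In both pairs the ligand was higher and the receptor lower in KO. Ntn1 per Unc5b was 0.130, 0.112 and 0.118 in WT and 0.0751, 0.117 and 0.0955 in KO, where KO 3 lay within the WT range. Sema4c per Plxnb2 was 2.52, 2.39 and 2.77 in WT and 1.92, 2.29 and 2.70 in KO, and these overlapped too. Sema3f per Plxna1 was 10.7, 9.83 and 10.0 in WT and 12.2, 14.4 and 13.9 in KO, where Plxna1 had the larger change of the pair. Efnb1 per Ephb1 overlapped, with 6.15 to 8.79 for WT and 6.47 to 7.17 for KO. In the pairs of Ntn1, Sema4c and Efnb1 the KO mean of the ratio was the lower one, at 0.0960 against 0.120, 2.31 against 2.56 and 6.79 against 7.40. The ratios of Ntn4 to Unc5b, Sema6a to Plxna2, Sema6d to Plxna1 and Slit3 to Robo4 also overlapped.

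Of the 62 members 39 lay under the filter, 15 receptors, 23 ligands and Unc5cl, and most were low. Their mean over the 6 libraries was at least 0.5 FPKM in 6 genes, 0.1 to 0.5 in 14 and under 0.1 in 19. All 3 Slits were among them. Slit2, the main Slit ligand of axon repulsion, had 2, 16 and 14 reads in WT and 6, 0 and 0 in KO, and Slit1 did not exceed 0.00623 FPKM. Slit3 reached 0.410, 0.834 and 0.883 FPKM in WT and 0.683, 0.323 and 0.206 in KO, with overlap. Robo4 was thus the one family member of the Slit and Robo group above the filter, with Robo1 at 21 to 105 reads a library, Robo2 at 131 to 223 and Robo3 at 0 to 26. Sema3e, a ligand that binds Plxnd1 directly, was listed at 0 in 5 libraries and at 0.0036 FPKM in WT 2.

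The authors' deposited table, made from their own count test, holds 55 of the 62 members. At q under 0.05 it calls 18 of the 55 lower and 1 higher in KO, against 15.7% lower and 13.6% higher among all 17686 genes in it. Among the 23 members that passed the filter it calls 14 lower and 1 higher. The receptors Robo4 (q = 0.201) and Ephb1 (q = 0.103) are not called there. Among the 32 members of that table under the filter, 4 were lower and none was higher, against the same 15.7% and 13.6%. Sema3d, a secreted class 3 semaphorin, was the most changed of these 4 lower genes. It had 1.10, 0.723 and 0.904 FPKM in WT and 0.171, 0.457 and 0.334 in KO, from 296, 188 and 237 reads against 43, 113 and 80. Its log2 fold change in the authors' deposited table was -1.43 (q = 0.000108).

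Sema3a, the founding collapse factor of growth cones, had 0.687, 0.481 and 0.742 FPKM in WT and 0.248, 0.446 and 0.194 in KO (-1.03 and q = 0.00221 in the authors' deposited table). Sema5a had 0.329, 0.268 and 0.230 FPKM in WT and 0.130, 0.0581 and 0.122 in KO (-1.35 and q = 0.00219 in the authors' deposited table), from 25 to 154 reads. Plxnb1, a receptor for Sema4d, had 0.808, 1.04 and 1.06 FPKM in WT and 0.703, 0.563 and 0.691 in KO (-0.52 and q = 0.0249 in the authors' deposited table). In all 4 genes the groups did not overlap, but the 4 were picked by their q in these same libraries, so this adds no support. Among all tested genes 31.9% had every KO library below every WT library. Plxnc1, the plexin for Sema7a, was low in both groups, at 0.290 to 0.462 FPKM in WT and 0.188 to 0.319 in KO, and Sema7a FPKM per Plxnc1 FPKM was 396 to 597 in WT and 445 to 867 in KO.

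Co-receptors and partner ligands of the families, from a list drawn up for them, were lower in KO in most tested members. Of 22 listed genes 19 were in the table and 11 passed the filter, of which 8 were lower and none was higher in limma, against 25.8% lower and 18.3% higher over all tested genes. Rgma, Cd72 and Vegfa were tested and not called. The median log2 fold change was -0.44. Once the trend was removed 4 were lower, against 9.42% over all tested genes, and the median was -0.23. Nrp2, the neuropilin for Sema3f, went from 55.4 ± 4.05 to 27.2 ± 4.18 FPKM and Nrp1, the neuropilin for Sema3a, from 114 ± 11.7 to 57.8 ± 7.63. Both lay below their lowest WT library in every KO library (limma adjusted p = 0.000456 for each, and with the trend removed 0.0043 for Nrp2 and 0.00488 for Nrp1). Itgb1, the integrin chain engaged by Sema7a, went from 304 ± 28.4 to 205 ± 17.1 FPKM (limma adjusted p = 0.00135, and 0.00785 with the trend removed). Neo1, the netrin receptor neogenin, went from 5.03 ± 0.509 to 3.03 ± 0.270 (limma adjusted p = 0.00183), and its call was lost with the trend removed (adjusted p = 0.0861).

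Intracellular transducers of guidance receptors included lower and higher genes. Of 50 listed genes 41 passed the filter, 21 lower and 4 higher, against 25.8% and 18.3% of all tested genes, with a median log2 fold change of -0.26. With the trend removed 5 were lower and 3 higher, near the shares over all tested genes of 9.42% and 9.26%, with a median of -0.02. Arhgef12, an exchange factor that couples plexin B receptors to RhoA, went from 18.1 ± 2.1 to 8.26 ± 1.42 FPKM (limma adjusted p = 0.000522, and 0.00839 with the trend removed), and Adam10, a protease that cleaves ephrins and Eph receptors, from 44.5 ± 4.31 to 27.9 ± 1.07 (adjusted p = 0.000564, and 0.00477 with the trend removed). The 4 that were higher were Rras, a GTPase that plexins act on, Gipc1, Cdk5 and Vasp. In the fit without the trend Rras (adjusted p = 0.723) and Vasp (0.198) were not called, and the 3 higher genes were Gipc1, Cdk5 and the GTPase gene Cdc42 (0.00373).

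The 3 genes that the rule set aside were lower too. Efnb2, the arterial ephrin, went from 30.2 ± 1.11 to 18.1 ± 0.684 FPKM (log2 fold change -0.71, limma adjusted p = 0.000351, and 0.012 with the trend removed). Ephb4, its venous receptor, went from 173 ± 5.16 to 143 ± 7.44 (-0.27, adjusted p = 0.011, and 0.146 with the trend removed). Sema3g went from 86.6 ± 3.56 to 64.3 ± 4.45 (-0.43, adjusted p = 0.00182, and 0.0332 with the trend removed).

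Markers of other cells differed between the groups beside these results, and their part in them was not tested. The summed FPKM of 8 endothelial markers was 3231 to 3280.5 in WT and 2703 to 3051 in KO (3 lower and 1 higher of 8 tested). Over all tested genes 25.8% were lower and 18.3% higher. The sums for other cell types were far smaller. The 8 mural markers (pericytes and smooth muscle) summed to 352 to 464 FPKM in WT and 238 to 371 in KO, with 7 lower, and 7 fibroblast markers to 23.2 to 26.0 and 11.7 to 14.4, with all 5 tested lower. The 5 lymphatic markers summed to 63.8 to 77.9 and 36.2 to 50.9, with 3 of 4 tested lower. Most of that sum was Flt4 (means 47.0 in WT and 31.2 in KO), while Prox1 lay under the filter at 0.641 and 0.207. The 7 leukocyte markers summed to 19.1 to 34.7 in WT and 44.9 to 60.8 in KO, with 3 of 6 tested higher, although Ptprc, which encodes the CD45 used for depletion, was close to the filter in both groups, at mean FPKM of 1.2 in WT and 1.16 in KO. The 6 cardiomyocyte markers summed to 82.1 to 122 and 102 to 120, with 1 higher and 1 lower. Mesothelial markers summed to 11.9 to 13.4 in WT and 9.40 to 9.75 in KO. Nearly all of that sum was Wt1, the 1 tested and lower, with means of 11.8 in WT and 8.73 in KO. Krt19 had means of 0.859 and 0.823, and Msln and Upk3b were under 0.05 FPKM, so the sum speaks for Wt1 and not for mesothelial cells. The 4 Schwann cell markers stayed under 0.3 FPKM in sum in every library. With the length trend removed 3 endothelial, 6 mural, 4 fibroblast, 3 lymphatic and 1 mesothelial markers were lower, against 9.42% of all tested genes. In that fit 2 leukocyte markers were higher, against 9.26% of all tested genes, and no cardiomyocyte marker was called.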

How the data were processed

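RNA sequencing of 3 WT and 3 KO libraries was analysed, with groups and replicate numbers from the sample titles. The authors deposited FPKM of 20893 genes in every library. Their comparison table, deposited for 17686 of these genes, gives per the file headers the normalized signal averaged within WT and within KO, a linear fold ratio, its log2, and a p-value with its q-value. The submitters' processing notes name, without role or order, DESeq2 1.22.1, featureCounts 1.6.2, HISAT2 2.1.0, fastp 0.19.3, GATK 4.0.11.0, Cufflinks, StringTie 1.3.4d and the genome build mm10.

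Read numbers were recovered from the FPKM and the authors' group signal for 17686 genes, and 100% of values not above 1000 reads came within 0.05 of a whole number. The same step gave each gene's exonic length and the depth. Depth was 36004456 to 40500067 reads. A chi-square per gene of 19.6 to 67 between libraries of one group showed no library deposited more than once.

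Genes that reached 1 FPKM in 3 or more libraries were fitted with limma 3.58.1 (R 4.3.3; trend, log2(FPKM + 1), Benjamini-Hochberg), tested on simulated data. The length trend was removed per library with lowess (span 0.3). Limma-voom on the recovered reads, other filters, scalings and pseudocounts and each library left out were alternatives. Members with a value in every library were, per family, the 3 tested ones of highest mean FPKM and the 3 with the smallest p among those called. Further members are named, some with a value in every library, where they lie under the filter, overlap a member or belong to a chosen pair. These were named after their values were seen. The members and gene lists were chosen with earlier results of these data known, and the length trend had been seen. All 62 members matched RefSeq by gene ID, which gave coordinates (GRCm38.p6, the mm10 build).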

Additional observations from a re-analysis of the deposited data

How the results depend on the processing

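Over all tested genes the counts with the length trend removed were 1001 higher and 1018 lower, and 309 and 407 when the replicate number was added as a block, a combination chosen after seeing the data. Among the guidance genes 8 were lower with the trend removed and 3 with the block as well, of which receptors were 4 and 2 and ligands 4 and 1. The count of higher guidance genes was 0 with quantile normalization and 0 with the trend removed and the block. Sema6a reversed to 0.0293 with the trend removed, with and without the block. By construction that setting takes out whatever follows length, genotype included; for the other changes the cause was not tested. The summed ligand ratio moved to 0.813 without Efna1 and to 0.982 with median-ratio scaling. Whether replicate numbers pair the samples is not known. Same-numbered deviations had correlations of -0.195, -0.349 and -0.222, and the others 0.00248 to 0.199. Deviations from a mean of 3 libraries sum to 0, so these values cannot decide it. With the number as a block on the FPKM as deposited 14 guidance genes were lower and 1 higher, and Sema3f (adjusted p = 0.0743), Robo4 (0.133) and Ephb1 (0.0834) lost their call. With single libraries left out 13 to 16 were lower, with median-ratio scaling 13, with limma-voom 15 and with no filter 16. Of the 18 called named genes 7 (Sema4c, Plxna4, Ntn1, Unc5b, Efnb1, Epha2 and Epha4) were called in every alternative that tested them other than the trend removal with the block; Plxna4 was not tested with the filter at 5 FPKM. Depth limits the members with few reads, such as Slit2 at 0 to 16 a library.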
